A study of Mus musculus with 10 samples.

Results

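The immunoglobulin kappa variable segments are the genes whose symbols begin with Igkv. All 160 such genes of the mouse annotation were taken, out of 35705 genes with values. A functional segment contributes to the variable, antigen-binding part of a kappa light chain, the commoner of the light-chain types of mouse antibodies. The annotation classes 100 of the 160 as functional and 60 as pseudogenes. All lie on chromosome 6, where they span chr6:67555497-70704177 of the build GRCm38, with 75 on the plus strand, the strand of the kappa constant gene Igkc, and 85 on the minus strand.

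Transcript abundance had been measured by RNA sequencing in 10 mice. Wild-type controls (WT, 5 mice) were compared with mice null for the microRNA gene Mir324 (Mir324-null, 5 mice), so the genotype comparison asks what differs in the tissue of an animal that lacks this microRNA. Each library came from the medial knee cartilage cap of 1 mouse, labelled as articular cartilage and chondrocyte, and no treatment was given. The labels state neither age, strain, sex, litter nor sequencing batch, nor whether the null allele acts in cartilage alone. No row used here is Mir324 itself, so the null allele was not checked from these values.

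A kappa light chain is built when a developing B cell joins a variable segment to a short joining segment that lies before Igkc. In a locus not yet rearranged, a segment on the strand of Igkc is joined by deletion of the DNA between them. A segment on the opposite strand is joined by inversion. Once joining is complete, each B cell and its descendants, including the plasma cells that make antibody in bulk, carry the final choice. The abundance of a segment in a tissue thus depends on which B-lineage clones are present and how much antibody RNA each makes. In symbols such as Igkv2-109, the number before the hyphen names the family of similar sequences and the number after it the order along the locus, counted from the joining segments.

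The text below turns first on the segments that led the kappa pool of each mouse. The last 60 bases of their variable exons, 5′ to 3′, are the end that is joined to a joining segment. Capitals mark the codon of the conserved cysteine, after which the most variable loop of the chain begins. Sequences are those of the GENCODE M21 transcripts on GRCm38.
Igkv6-23 (chr6:70260409-70260468, minus strand; led WT 1): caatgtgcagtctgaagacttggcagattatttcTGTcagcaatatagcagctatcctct
Igkv15-103 (chr6:68437866-68437925, plus strand; led WT 2 and null 5): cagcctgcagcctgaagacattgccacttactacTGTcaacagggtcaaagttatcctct
Igkv19-93 (chr6:68736297-68736356, minus strand; led WT 3 and null 1): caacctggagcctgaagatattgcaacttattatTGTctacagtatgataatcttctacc
Igkv10-96 (chr6:68631963-68632022, minus strand; led WT 4): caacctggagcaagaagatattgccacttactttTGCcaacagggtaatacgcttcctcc
Igkv9-120 (chr6:68050397-68050456, plus strand; led WT 5): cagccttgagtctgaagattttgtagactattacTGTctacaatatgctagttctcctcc
Igkv4-55 (chr6:69607275-69607334, minus strand; led null 2 and null 3): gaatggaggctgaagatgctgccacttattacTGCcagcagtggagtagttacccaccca
Igkv8-30 (chr6:70117061-70117120, minus strand; led null 4): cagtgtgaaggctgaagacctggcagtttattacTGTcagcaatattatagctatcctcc

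The next pair shows why 1 segment needs care. Igkv2-109 was the only tested segment whose values did not overlap between the genotypes, and its closest relative is the pseudogene Igkv2-116. The last 240 bases of each are printed, with the 14 bases that differ in capitals.
Igkv2-109 (chr6:68302919-68303158, plus strand): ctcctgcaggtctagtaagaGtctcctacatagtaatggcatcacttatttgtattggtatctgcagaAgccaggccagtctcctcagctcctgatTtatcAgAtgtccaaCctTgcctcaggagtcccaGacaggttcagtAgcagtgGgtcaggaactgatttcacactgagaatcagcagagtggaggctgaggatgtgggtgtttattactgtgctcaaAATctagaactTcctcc
Igkv2-116 (chr6:68152378-68152617, plus strand): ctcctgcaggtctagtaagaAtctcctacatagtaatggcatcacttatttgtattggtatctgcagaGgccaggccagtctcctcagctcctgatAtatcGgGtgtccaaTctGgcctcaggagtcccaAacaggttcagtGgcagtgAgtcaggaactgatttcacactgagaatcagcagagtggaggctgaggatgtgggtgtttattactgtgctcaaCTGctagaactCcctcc

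Values are in TPM, a length-corrected abundance scaled so that every library has the same sum. They hold no read counts, so the depth behind them is unknown. Tests used limma on log2(TPM + 1) across the 13841 genes whose mean reached 1 TPM, two-sided, with Benjamini-Hochberg adjustment over those genes. The log2 differences are null minus WT on that scale, which understates the change of low genes. The tested genes included 90 of the 160 segments, and the other 70 are described by their values only. Many segments are near copies of one another. A median of 51.1% of the 31-base words of a tested segment occur in another annotated gene, and 46 of the 90 share more than 50%. How reads were divided among relatives may thus bear on the single values.

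The whole pool of kappa V transcripts was large and overlapped between the genotypes. The kappa V total, the sum over the 160 segments, was 2013.2, 4003.1, 3599, 3084 and 3735 TPM in WT mice 1 to 5 and 4400.0, 3560.5, 4285, 3389 and 4203 TPM in null mice 1 to 5. It took between 0.201% and 0.440% of a library. The mean was 3287 ± 787 TPM in WT mice (SD, n = 5) and 3967 ± 459 TPM in null mice (SD, n = 5). WT 1 had the lowest total, WT 4 also lay below every null mouse, and the other 3 WT mice lay within the range of the null mice. The difference of 681 TPM in the means fell to 362 TPM without WT 1, and was 1101 TPM when libraries were rescaled without their haemoglobin genes. In bulk tissue, fewer cells of a type and less RNA per cell cannot be told apart.

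Igkc, the constant region shared by every kappa chain, gives the kappa level without any assignment to segments. It stood at 3976, 5488, 4807, 4103 and 5207 TPM in WT mice 1 to 5 and at 5588, 4718, 5437, 4845 and 5812 TPM in null mice 1 to 5. The genotypes overlapped, and the log2 difference was 0.17 with a standard error of 0.11 (limma adjusted p = 0.613; two-sided exact permutation p = 0.175). The size of that difference moved with the scaling and with WT 1. It was 0.34 under quantile normalization (limma unadjusted p = 0.0127, adjusted p = 0.299), 0.26 when libraries were rescaled without their haemoglobin genes (limma adjusted p = 0.417) and 0.11 without WT 1 (limma adjusted p = 0.853), and its adjusted p ran from 0.299 to 0.853 over the alternatives. The kappa V total per unit of Igkc was 0.506 in WT 1 and between 0.699 and 0.788 in the other 9 mice. Thus in WT 1 less of the kappa signal was assigned to V segments than in any other library; what this follows from was not tested.

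**Figure D1:**
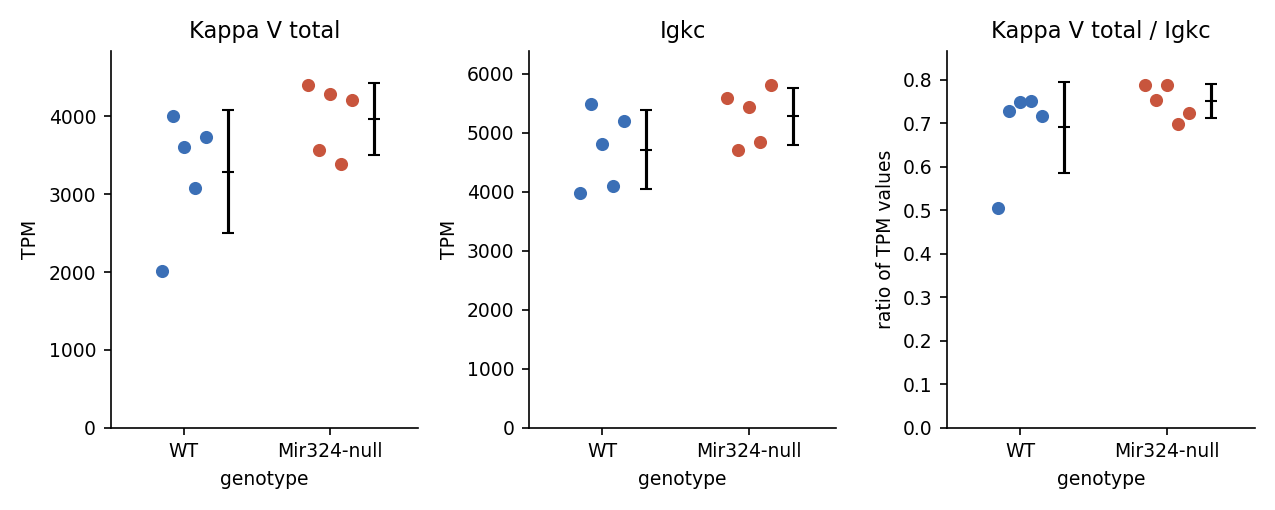
Kappa V total, Igkc and their ratio (TPM, TPM and a ratio of TPM values on the vertical axes) in each of the 5 WT and 5 Mir324-null mice, with the mean and SD of each genotype in black. The genotypes overlap in all 3 panels, and WT 1 sits apart at a ratio of 0.506.

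The knee caps held RNA of blood-cell lineages and of bone as well as cartilage. The 7 erythroid markers summed to between 112640 and 198844 TPM in WT and between 159238 and 263631 TPM in null mice, and 4 of the 7 were higher in null mice at an unadjusted limma p under 0.05, beside 4.28% of all genes tested. The 7 neutrophil markers summed to between 54585 and 111430 TPM over all mice, with 0 of the 7 past that level, and the 5 T cell markers to between 18.5 and 42.9 TPM, with 0 of the 5 past it. The 9 chondrocyte markers summed to between 1865 and 6054 TPM in WT and between 1608 and 2855 TPM in null mice. Most of that sum was Prg4, with 1564 to 5075 TPM in WT and 1335 to 2319 TPM in null mice. Col2a1 lay between 66.3 and 143 TPM in WT and between 33.9 and 92.2 TPM in null mice. Of the 7 tested chondrocyte genes 4, without Prg4, were lower in null mice, beside 7.30% of all genes tested. The cartilage genes Matn3 and Col9a1 were under 1 TPM in every mouse. Of the 6 osteoblast and osteocyte markers 5 were lower, beside the same 7.30%, with sums between 3201 and 7460 TPM in WT and between 1709 and 3643 TPM in null mice. No marker passed after adjustment. The part of tissue makeup in the kappa values was not tested.

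The functional segments carried nearly all of the kappa V signal. Of the 100 functional segments 87 passed the filter, and 3 (Igkv5-37, Igkv1-35 and Igkv3-9) were listed at 0 in every mouse. Of the 60 pseudogenes 40 were listed at 0 in every mouse and 3 passed the filter, namely Igkv4-77, Igkv4-56 and Igkv4-73. The 6 segments just named were picked out after their values were seen. All pseudogenes together made up between 0.0325% and 0.704% of the kappa V total. Within the locus, 16 further V entries carry other symbols, and they came to at most 0.440% of the kappa V total in any mouse.

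Each mouse drew on a broad set of segments led by a few. Between 81 and 95 segments were above 0 in a mouse, and between 28 and 38 made up 90% of the kappa V total. The effective number of segments, the inverse Simpson index of the shares, is the number of equally used segments that would give the same concentration. It was 20.7, 22.8, 22.3, 29.9 and 16.2 in WT mice 1 to 5 and 12.6, 25.9, 26.8, 23.8 and 21.7 in null mice 1 to 5. The mean was 22.4 ± 4.94 (SD, n = 5) in WT and 22.2 ± 5.70 (SD, n = 5) in null mice, a difference of -0.217 that turned to 1.66 without WT 4 and to 2.18 without null 1. WT 4 was the most even mouse and null 1 the most concentrated.

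The leading segment differed from mouse to mouse within both genotypes. In WT mice the leaders were Igkv6-23 with 12.0% of the kappa V total of WT 1, Igkv15-103 with 11.3% of WT 2, Igkv19-93 with 13.5% of WT 3, Igkv10-96 with 7.03% of WT 4 and Igkv9-120 with 13.3% of WT 5. In null mice they were Igkv19-93 with 22.7% of null 1, Igkv4-55 with 11.6% of null 2 and 10.6% of null 3, Igkv8-30 with 12.4% of null 4 and Igkv15-103 with 12.7% of null 5. The 10 mice had 7 different leaders, of which Igkv19-93 and Igkv15-103 each led 1 mouse of each genotype. In WT 5 the segments ranked just below the leader, Igkv4-59 with 12.6% and Igkv14-126 with 10.3%, also exceeded 10%, so that 8 segments exceeded 10% in some mouse.

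**Figure D2:**
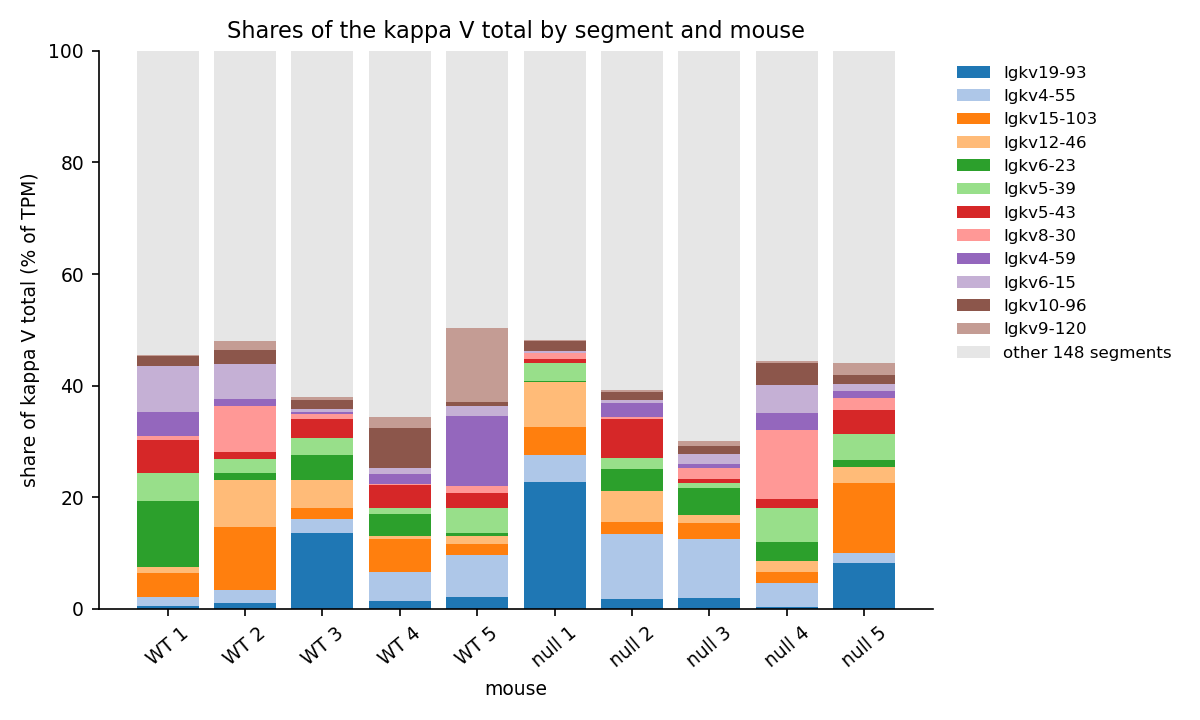
Share of the kappa V total (percent of TPM, vertical axis) taken by the 10 segments with the highest mean share and the 2 further segments that led a mouse, in each of the 10 mice, with the other 148 segments in grey. No colour leads throughout; Igkv19-93 takes 22.7% in null 1 and 0.396% in null 4.

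Igkv19-93, the only member of its family, had the highest mean share, 5.38%. It was at 10.6, 43.8, 487, 41.3 and 82.0 TPM in WT mice 1 to 5 and at 1000.5, 66.1, 84.7, 13.4 and 343 TPM in null mice 1 to 5. WT 3, null 1 and null 5 were high and the other 7 mice were all under 100 TPM, so both genotypes held high mice. The log2 difference was 1.0 ± 1.14 (SE; limma adjusted p = 0.813).

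Igkv4-55 followed with a mean share of 5.25%. Its values were 32.3, 95.0, 95.5, 164 and 282 TPM in WT and 214, 411, 454, 141 and 75.8 TPM in null mice 1 to 5. The highest values were in null 2 and null 3, but null 5 lay below 4 of the 5 WT mice (log2 difference 0.99 ± 0.59 SE; limma adjusted p = 0.564). This segment shares 78.2% of its 31-base words with other annotated genes. Its level may thus depend on how the authors' counting divided shared reads, which was not tested.

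Igkv15-103 had a mean share of 4.99%, with shares of 4.32, 11.3, 1.82, 5.87 and 1.96% in WT mice 1 to 5 and 5.03, 2.11, 2.77, 2.06 and 12.7% in null mice 1 to 5. It shares no 31-base word with another segment. Its lowest mouse, WT 3, still had 65.3 TPM, the highest minimum of the 160 segments, and its highest, null 5, had 532 TPM. The log2 difference was 0.22 ± 0.63 (SE; limma adjusted p = 0.946).

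Igkv8-30 was concentrated in 1 mouse of each genotype. It stood at 335 TPM in WT 2 and 419 TPM in null 4, against 5.67 to 47.8 TPM in the other WT mice and 18.0 to 89.4 TPM in the other null mice. Igkv9-120 stood at 495 TPM in WT 5 and between 2.93 and 85.3 TPM in the other 9 mice. Igkv4-59, at 472 TPM in WT 5, was listed at 0 in null 1 and lay between 17.5 and 105 TPM elsewhere. WT 5 was thus the highest mouse of the 10 for both, as it was for Igkv14-126 with 386 TPM against at most 94.2 TPM elsewhere.

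The remaining segments among the 10 with the highest mean share were Igkv12-46 (3.62%), Igkv6-23 (3.58%), Igkv5-39 (3.27%), Igkv5-43 (3.18%) and Igkv6-15 (2.69%), besides Igkv8-30 (2.94%) and Igkv4-59 (2.79%). Igkv6-23 ran from 12.7 TPM in null 1 to 241 TPM in WT 1. Igkv5-39 lay between 34.1 TPM in WT 4 and 207 TPM in null 4. None of the 10 passed the test between genotypes at an unadjusted limma p under 0.05.

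Some segments were present at a sizeable level in every animal. Of the 90 tested segments 46 had at least 1 TPM in every mouse and 13 at least 10 TPM. The 13 were Igkv15-103, Igkv12-46, Igkv5-39, Igkv8-27, Igkv1-110, Igkv1-117, Igkv10-96, Igkv5-43, Igkv6-15, Igkv6-23, Igkv1-135, Igkv4-55 and Igkv19-93. At the other end, 33 tested segments were listed at 0 in at least 1 mouse, and in 59 the highest mouse was at least 5 times the median mouse. The highest mouse was a WT mouse for 40 segments and a null mouse for 50, and every mouse was the highest for at least 6 segments.

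The spread between mice of 1 genotype was wide. The residual SD of log2(TPM + 1), the scatter of mice around their genotype mean, had a median of 1.54 over the 90 tested segments and of 0.240 over all 13841 genes tested. It exceeded 1 in 79 of the 90 segments (87.8%) and in 319 of all genes tested (2.30%). The standard error of the genotype difference on the log2(TPM + 1) scale was 0.11 for Igkc and 1.14 for Igkv19-93.

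**Figure D3:**
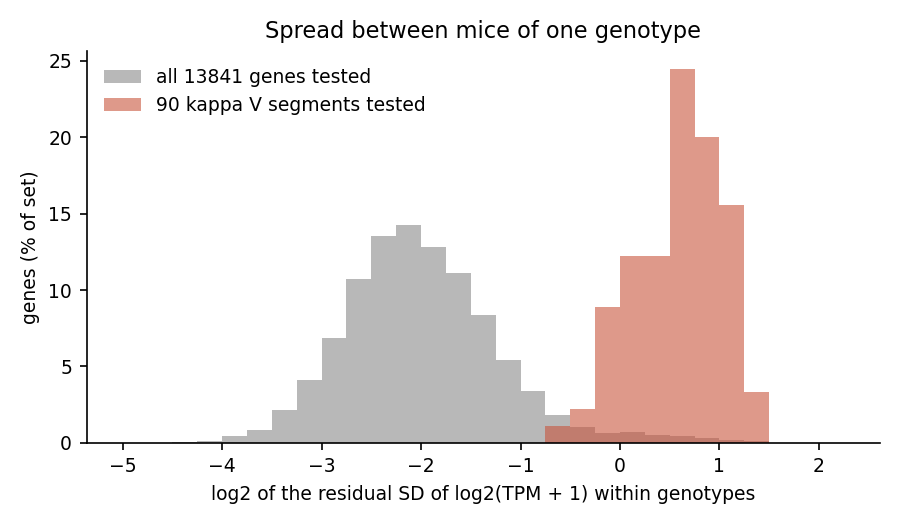
Distribution of the residual SD of log2(TPM + 1) within genotypes (log2 of the SD on the horizontal axis, percent of each set on the vertical axis) for the 90 tested kappa V segments in red and all 13841 tested genes in grey. The segments lie to the right, with medians of 1.54 and 0.240.

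Pairs of mice shared a similar part of their repertoire within and between genotypes. The overlap of a pair of mice was taken as the sum, over segments, of the lower of both shares. Its median was 45.0% over the 20 pairs within a genotype (range 36.7% to 57.2%) and 46.2% over the 25 pairs between genotypes (range 35.9% to 55.9%). The pairs share mice, so these are descriptions without a test.

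By family, the shares also overlapped. Igkv4, the largest family with 33 members of which 27 were tested, took a mean of 20.6% of the kappa V total, with 12.2% to 35.5% in WT and 13.6% to 30.6% in null mice. Igkv6 took 13.7%, from 3.71% in WT 5 to 27.5% in WT 1, and Igkv3 took 9.15%, from 2.29% in null 4 to 22.5% in null 3. The means of Igkv8, Igkv5, Igkv1 and Igkv12 lay between 6.57% and 7.95%. In none of the 20 families did the 5 null mice all lie above or all below the 5 WT mice.

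Along the locus, the part farthest from the joining segments gave the smallest mean share in null mice, but not in WT mice. With the locus divided into 4 equal spans from the far end, the mean shares were 19.96, 18.4, 31.5 and 30.2% in WT mice and 13.6, 21.5, 33.0 and 31.8% in null mice. The spans hold 20, 22, 25 and 33 functional segments. In null mice the second span ran from 11.7% to 34.5% and so overlapped the farthest. In the farthest span, the WT mice ran from 9.79% to 31.5% and the null mice from 9.50% to 21.1%, so the genotypes overlapped. The WT mean of that span includes Igkv9-120 and Igkv14-126, which took 13.3% and 10.3% of the kappa V total of WT 5. Segments on the minus strand, opposite to Igkc, made up 65.2 ± 4.52% of the total in WT mice and 67.2 ± 5.16% in null mice (SD, n = 5 each). Of the minus-strand segments 57 of 85 were tested, and of the plus-strand segments 33 of 75.

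**Figure D4:**
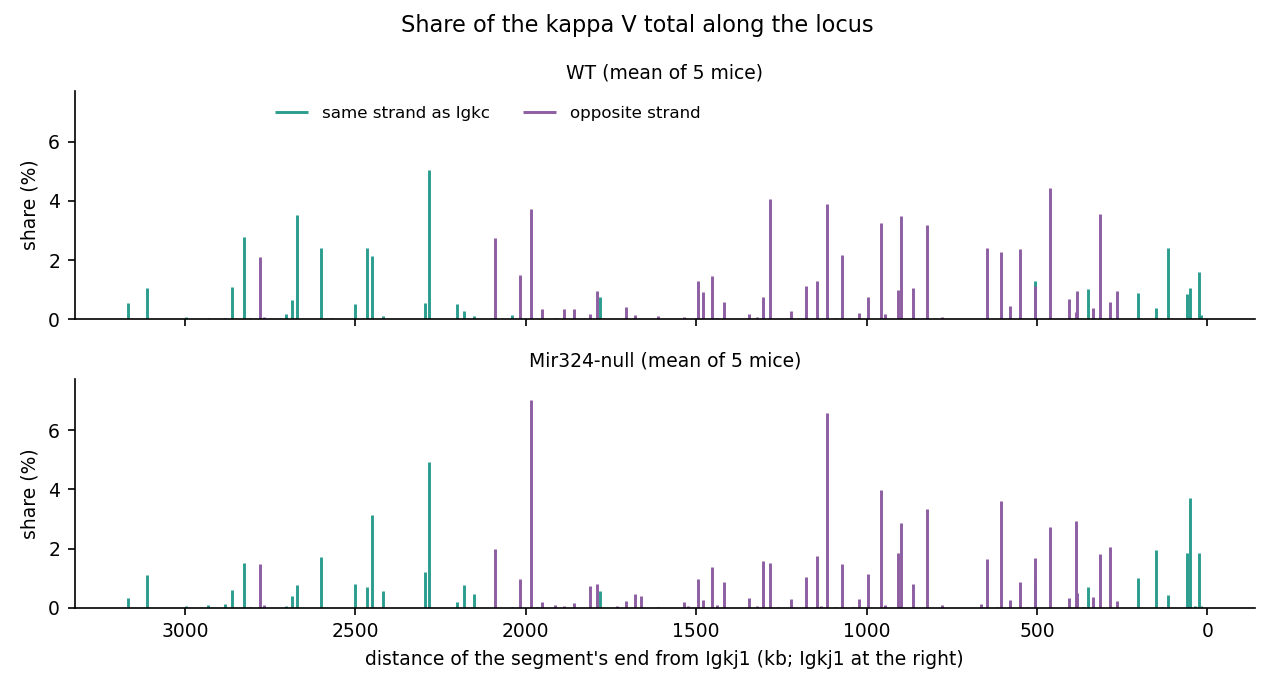
Mean share of the kappa V total (percent, vertical axis) of each of the 160 segments by its distance from the joining segment Igkj1 (kb, horizontal axis), for the 5 WT mice above and the 5 null mice below, coloured by strand. The tall lines stand in all parts of the locus. The farthest span adds up to means of 19.96% in WT and 13.6% in null mice, and single mice of the genotypes overlap there.

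Between genotypes, no segment passed the adjusted test. At an adjusted limma p under 0.05 the count was 0 of 90 segments, beside 0% of all genes tested, and no adjusted p was under 0.277. At an unadjusted limma p under 0.05, 4 of 90 segments (4.44%) were higher in null mice, beside 4.28% of all genes tested. The share of segments was close to that background. In the other direction 1 of 90 (1.11%) was lower, beside 7.30% of all genes tested. All 5 null mice lay above all 5 WT mice in 1 of 90 segments, beside 0.881% of all genes tested, and below them in 0 of 90, beside 1.06%.

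These counts moved with single mice. The count of higher segments was 9 without WT 2, 2 without WT 3, 8 without null 1 and 7 without null 4. The count of lower ones was 0 without null 1, 2 without WT 2 or without null 5, and 3 without null 4. Shares of all genes tested were taken only with all 10 mice, so these counts have no matching background. Of the 90 log2 differences 53 were above 0 and 37 below, beside 5534 above and 8307 below of all 13841 genes tested. The segment differences ranged from -1.57 to 2.67, and their median was 0.26 beside -0.05 over all genes tested. Without WT 1 the median was 0.12.

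Igkv2-109 (ENSMUSG00000105606, chr6:68302427-68303158, plus strand), a functional segment of the Igkv2 family, was the segment that separated the genotypes, which an earlier analysis of these data had already shown. It stood at 0.833, 0.908, 3.92, 11.0 and 3.47 TPM in WT mice 1 to 5 and at 24.2, 20.8, 28.7, 21.3 and 17.6 TPM in null mice 1 to 5. Every null mouse lay above every WT mouse, with 22.5 ± 4.18 TPM in null mice against 4.02 ± 4.13 TPM in WT mice (SD, n = 5 each). The same held for its share of the kappa V total, which was 0.0414, 0.0227, 0.109, 0.355 and 0.0930% in WT and 0.550, 0.584, 0.670, 0.629 and 0.418% in null mice. No other segment had shares without overlap.

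The log2 difference of Igkv2-109 was 2.57 ± 0.43 (SE), with an unadjusted limma p of 7.98e-05 and an adjusted limma p of 0.277. The two-sided exact permutation p was 0.00794, the smallest that 5 against 5 mice can give. Any gene without overlap between the genotypes gives that value. Since this segment was already known from these data to have no overlap, its p-values are no independent support. WT 4 was the highest WT mouse, and without it the log2 difference was 2.97 and the adjusted limma p 0.0195. Over all the alternatives that have one, its adjusted p ran from 0.0195 to 0.915. The highest of these came with the level of Igkc as a covariate, where the log2 difference was 2.74. Its residual SD of 0.81 was among the 3 smallest of the 90 segments. By mean share it ranked 59 of 160, so it carried little of the pool.

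Igkv2-109 shares 47.1% of its 31-base words with other annotated genes, and 141 of its 344 words with Igkv2-116, to which it is 95.9% identical. The pseudogene Igkv2-116 was at 4.47 TPM in WT 1, at 0.467 TPM in WT 3, between 0.410 and 0.631 TPM in null 1, null 3 and null 5, and listed at 0 in the other 5 mice. In WT 1 the pseudogene exceeded Igkv2-109 itself. When both were added, the sums were 5.30, 0.908, 4.38, 11.0 and 3.47 TPM in WT and 24.7, 20.8, 29.3, 21.3 and 18.0 TPM in null mice, again without overlap, and the log2 difference was 2.20.

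The other functional members of the Igkv2 family did not follow that pattern. Igkv2-112, with 81.7% identity and 4 words in common with Igkv2-109, was at 0, 17.5, 1.44, 21.9 and 51.8 TPM in WT and at 42.6, 31.7, 0.608, 24.5 and 59.7 TPM in null mice. Added to Igkv2-109 it gave a log2 difference of 1.97 with overlapping genotypes. Igkv2-137, at the far end of the locus, lay between 1.12 and 65.8 TPM in WT and between 2.06 and 40.1 TPM in null mice. The remaining members, Igkv2-113, Igkv2-107, Igkv2-105, Igkv2-95-2, Igkv2-95-1 and Igkv2-93-1, are pseudogenes and were listed at 0 in every mouse. Of the neighbours of Igkv2-109 on the chromosome, the pseudogene Igkv1-108 was listed at 0 in every mouse. Igkv1-110 on the other side had 71.0 ± 32.2 TPM in WT and 117 ± 82.5 TPM in null mice (SD, n = 5 each; log2 difference 0.52, limma adjusted p = 0.787).

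The other 3 segments counted as higher overlapped between the genotypes. Igkv16-104, the only member of its family, was at 12.2, 6.21, 21.3, 3.08 and 46.8 TPM in WT and at 49.7, 35.5, 25.4, 49.5 and 80.2 TPM in null mice. Only WT 5 reached the null range (log2 difference 1.78 ± 0.56 SE; limma unadjusted p = 0.00845, adjusted p = 0.319; exact permutation p = 0.0317). It shares 0.287% of its 31-base words with other annotated genes, and its unadjusted p lay between 0.00051 and 0.048 over the alternatives.

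Igkv6-20 was at 3.73, 9.10, 1.73, 13.2 and 11.1 TPM in WT and at 75.4, 14.6, 3.62, 110.4 and 384 TPM in null mice. Null 3 was within the WT range and null 5 was far above all others (log2 difference 2.67 ± 1.0 SE; limma adjusted p = 0.355; exact permutation p = 0.0635). Its unadjusted limma p of 0.0211 rose to 0.0525 without WT 3 and to 0.0516 without null 5. It is 98.7% identical to Igkv6-29 and shares 78.0% of its words.

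Igkv6-14 was at 50.5, 0.611, 8.19, 3.89 and 0.546 TPM in WT and at 217, 3.37, 179.7, 24.6 and 11.0 TPM in null mice. Null 1 and null 3 carried most of its level, and WT 1 exceeded 3 of the 5 null mice (log2 difference 2.63 ± 1.20 SE; limma unadjusted p = 0.0490; exact permutation p = 0.111). Leaving out WT 2, WT 3, WT 4, WT 5, null 1, null 3 or null 4 brought its unadjusted p to between 0.0570 and 0.122.

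Igkv8-27 was the single segment counted as lower. It was at 19.5, 104, 66.3, 160.0 and 47.5 TPM in WT and at 24.8, 34.6, 22.9, 58.6 and 21.8 TPM in null mice. WT 1 lay below every null mouse, whereas WT 2, WT 3 and WT 4 lay above them all (log2 difference -1.05 ± 0.48 SE; limma unadjusted p = 0.0488; exact permutation p = 0.111). Its unadjusted p missed 0.05 when WT 2, WT 3, WT 4, null 1, null 2, null 3 or null 5 was left out, the highest being 0.127 without WT 4.

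**Figure D5:**
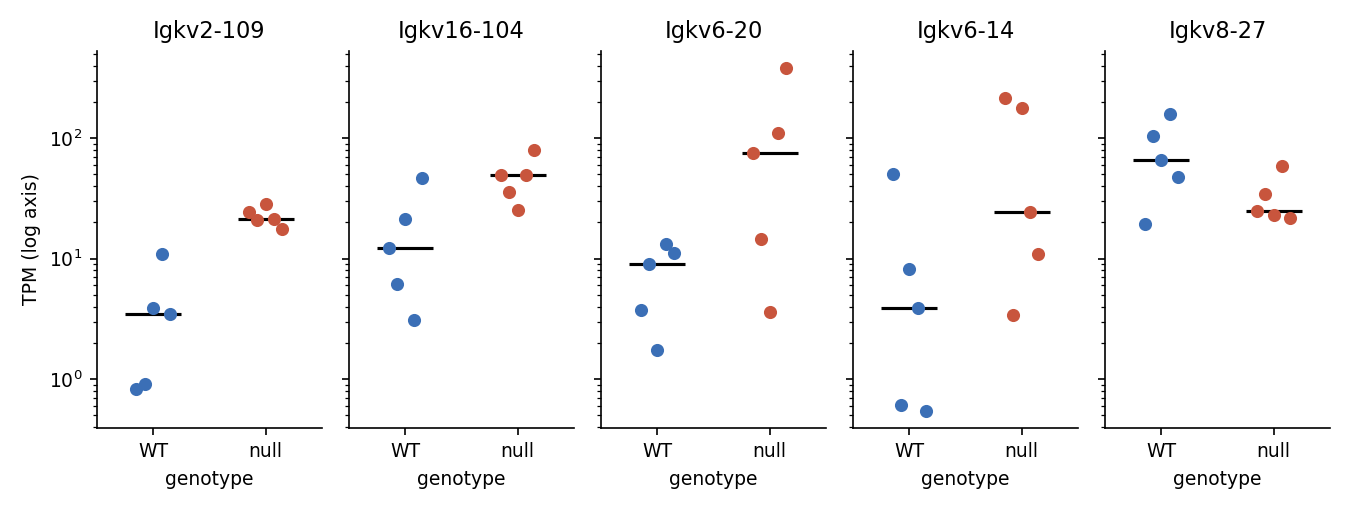
TPM (log axis) of the 5 segments with an unadjusted limma p under 0.05, in each of the 5 WT and 5 null mice, with the median of each genotype as a line. Igkv2-109 alone has no overlap, with WT mice from 0.833 to 11.0 TPM and null mice from 17.6 to 28.7 TPM.

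The other genes of antibodies and of the B lineage gave the setting of these values. They are 6 lists with 43 tested genes. Null mice had 7 of these lower and 0 higher at an unadjusted limma p under 0.05, and 0 of the 43 passed the adjusted limma test. Of all genes tested, 7.30% were lower and 4.28% higher at that unadjusted level. The 7 were the plasma cell surface gene Sdc1 (log2 difference -0.48), the B cell coactivator Pou2af1 (-0.49), the recombinase gene Rag1 (-0.55), Vpreb3, a gene of B cell precursors (-0.70), the B lineage factor Pax5 (-0.52), and Cd79a (-0.44) and Cd79b (-0.44) of the B cell receptor. The count of 7 was 4 without WT 1 or without WT 3, 3 without null 1 or without null 4, and 11 without null 3. It was 2 when libraries were rescaled without haemoglobin genes. The shares of all genes under these settings were not taken.

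By list, 2 of 11 tested plasma cell genes, 3 of 10 genes of B precursors and recombination, and 2 of 8 B cell surface genes were lower, beside 7.30% of all genes tested. The median log2 differences of those lists were -0.24, -0.35 and -0.39, beside -0.05 over all genes tested. Of 7 tested heavy-chain constant genes 0 were called, with a median of 0.06, and of 6 tested lambda genes 0 were called, with a median of -0.07. In the list of kappa joining and constant genes only Igkc was tested, since Igkj1 to Igkj5, the joining segments, were all listed at 0. Kappa chains carry a joining segment and Igkc was abundant in every mouse, so these zeros are not read as absence. Their source was not tested. Jchain, which links antibody polymers, was at 286 ± 66.6 TPM in WT and 262 ± 56.2 TPM in null mice (SD, n = 5 each; limma adjusted p = 0.881).

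Among the lambda light-chain genes, a pair stood far higher in 2 mice than in the others. Iglv2 was at 347 TPM in WT 3 and 253 TPM in null 3, against 15.0 to 44.9 TPM in the other 8 mice. Iglc2 was at 525 TPM in WT 3 and 360 TPM in null 3, against 69.2 to 138 TPM in the others. Both mice were thus high for the variable and the constant gene of the same lambda type, and 1 belonged to each genotype. The other lambda genes showed no such gap in these mice: Iglv1 lay between 104 and 248 TPM, Iglc1 between 76.2 and 267 TPM and Iglc3 between 61.3 and 125 TPM over the 10 mice. Iglv2 and Iglc2 were singled out after their values were seen.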

How the data were processed

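RNA of 10 knee cartilage caps, each from an individual mouse, was sequenced by the authors from low-input libraries, per the labels' protocols. The authors deposited 1 table of TPM values per transcript, made with kallisto per the submitters' processing notes. Those notes name the human build GRCh38, while the identifiers are of mouse transcripts; the index and versions were not given in the sources used here. TPM values carry no counts, so the read depth and its precision are unknown, and reads of near-identical segments may be divided between them.

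Transcripts were matched without version numbers to GENCODE M21 (GRCm38), which left 1472 of 116912 unmatched, holding 0.275% to 0.356% of a library, and were summed per gene. Columns were matched by name, with 0 of other samples. Values were tested with limma 3.58.1 in R 4.3.3 (trend on the mean) on log2 of TPM with a pseudocount of 1, for genes whose mean reached 1 TPM, with no covariate, with Benjamini-Hochberg adjustment and a threshold of 0.05. The fit was tested on simulated data. Single genes were also compared by an exact permutation test, two-sided (scipy 1.17.1). Totals, shares and the effective number are described without a test. Shared sequence was counted as 31-base words of the annotated transcripts, and identity came from pairwise alignment (biopython 1.88).

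The segments and gene lists were chosen with earlier results of these data known. Segments named were Igkv2-109, the 10 with the highest mean share, the leaders and those over 10% in any mouse, those with an unadjusted p under 0.05 (at most 5 in each direction), the Igkv2 family, and the neighbours of Igkv2-109. Alternatives changed the pseudocount, filter, scaling, trend, covariate and replicate block, left out each mouse, and took shares over functional or tested segments or weighted by length. The sums of Igkv2-109 with its relatives were added after the data had been seen.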

Additional observations from a re-analysis of the deposited data

Results flagged for a closer look

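In groups of 5 mice, the gap of the highest or lowest mouse to its nearest neighbour was compared with the range of the group. The level used is one that about 1 of 20 groups of normally distributed values pass. Of 52 groups examined, 11 passed, 10 of them in single segments. Segment values were taken as TPM without a log, and several segments had been named for a high share in some mouse. The count of 11 therefore cannot be set against that level and is a description only. The values of named segments that stood apart on the high side among WT mice were Igkv19-93 at 487 TPM in WT 3, where the others reached at most 82.0 TPM, Igkv8-30 at 335 TPM in WT 2, where the others reached at most 47.8 TPM, and Igkv6-14 at 50.5 TPM in WT 1, where the others reached at most 8.19 TPM. In WT 5, 3 segments stood apart, namely Igkv9-120 at 495 TPM, Igkv4-59 at 472 TPM and Igkv14-126 at 386 TPM, where the other WT mice reached at most 65.6, 87.1 and 85.6 TPM.

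Within the Igkv2 family, Igkv2-137 stood apart at 65.8 TPM in WT 2, where the other WT mice reached at most 18.4 TPM. The pseudogene Igkv2-116 stood apart at 4.47 TPM in WT 1, where they reached at most 0.467 TPM. Among null mice, Igkv8-30 stood apart at 419 TPM in null 4 and Igkv6-20 at 384 TPM in null 5, where the others reached at most 89.4 and 110.4 TPM. On the low side, the kappa V total per unit of Igkc was 0.506 in WT 1, while the other WT mice lay between 0.717 and 0.752.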

How the results depend on the processing

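The direction of Igkv2-109, Igkc, Igkv16-104, Igkv6-20, Igkv6-14, Igkv8-27 and the kappa V total did not change under any alternative run. The log2 difference of Igkv2-109 ran from 2.29 to 2.97 with 1 mouse left out, and was 2.97 with an adjusted limma p of 0.0195 without WT 4, against adjusted p-values from 0.0867 to 0.915 under its other alternatives. With 1 mouse left out, the count of higher segments ran from 2 to 9, of lower ones from 0 to 3, and past the adjusted test from 0 to 1. Among the antibody and B lineage genes the counts ran from 0 to 1 higher and from 3 to 11 lower. Shares of all genes were taken only in the main fit, so the counts of this section have no background beside them. The difference in the effective number of segments ran from -1.76 to 2.18, and it reversed to 1.66 without WT 4 and to 2.18 without null 1. The cause was not tested.

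With a pseudocount of 0.1, 7 segments were higher and 2 lower. The count of lower segments was 0 with no filter beyond a mean above 0, under median ratio scaling, rescaled without haemoglobin genes, under quantile normalization and without the trend, and 3 with Igkc as a covariate. List genes counted higher were 1 under quantile normalization (Igkc) and 1 with Igkc as a covariate, and list genes counted lower were 2 without haemoglobin genes. With the replicate block, 10 segments were higher and 3 lower, 2 list genes were higher, and the adjusted p of Igkv2-109 was 0.467. No pairing by replicate number was seen in the values: correlations of same-numbered mice ran from -0.144 to 0.0564, and no mouse correlated best with its own number. Whether the numbers stand for a litter or batch cannot be told from this, since the labels state neither. Scalings moved the median of all genes from -0.05 to between 0.00 and 0.04 (log2), and put 55 or 56 of 90 segment estimates above 0, against 53 as deposited. The matching counts over all genes under these scalings were not taken. TPM values give no detection limit, so a segment listed at 0 may have been below what these libraries show.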

Other observations

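Among heavy-chain constant genes, single mice also stood far from others of their genotype. Ighg1 was at 173 TPM in WT 4 and between 7.64 and 30.1 TPM in the other WT mice, and at 203 and 161 TPM in null 2 and null 4 against 22.8 to 55.8 TPM in the other null mice. Ighg3 was at 124 TPM in WT 2 and between 0.620 and 13.9 TPM in the other 9 mice. Ighm, the constant gene of the first antibody class a B cell makes, ran from 518 TPM in null 4 to 2079 TPM in WT 3, and Igha from 253 TPM in null 2 to 839 TPM in WT 4. None of these 4 passed the limma test between genotypes (adjusted p from 0.556 to 0.976). They were chosen for mention after their values were seen.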
